A study of Homo sapiens with 12 samples.

Results

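The 10 mRNAs described here, THOP1, ABHD17A, C16orf74, DDAH1, MAPK6, NSMCE4A, RDH11, HDGFL3, DERL2 and ARHGAP19, were picked by symbol from a table of 16172 genes because their input levels were lower with EIF3G siRNA than with control siRNA. They were measured in NCI-H1299, a line from a human lung cancer of the non-small-cell type, by RNA sequencing in whole lysates and polysomes. Cells received either siEIF3Gs, a mix of 2 siRNAs against EIF3G in equal molar parts, or siCtrl, a single control siRNA, and were lysed 72 h later. A share of 10% of each lysate served as input, and the polysomal fraction was taken from a sucrose gradient of 10% to 50%. The groups are siEIF3G input, siCtrl input, siEIF3G polysomal and siCtrl polysomal, with 3 libraries each. All cells went through transfection, and no untransfected or single-siRNA group is part of these data. Whether replicates came from separate cultures is not stated, and p-values speak for the spread among these libraries, which may be technical.

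EIF3G is a subunit of eIF3, the complex that joins mRNA to the small ribosomal subunit at the start of translation. An siRNA acts through the strand that Argonaute keeps, the guide, which cleaves mRNAs of full complementarity. A guide can also lower other mRNAs whose 3′ UTR pairs with its seed, bases 2 to 8, in the manner of a miRNA. The level of an mRNA in a knockdown can therefore move through the loss of the target's function or through the siRNA's own pairing. The levels given here do not separate these routes, and which transcripts pair with the siRNAs was not analysed here.

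The siRNAs are shown because any pairing with an mRNA starts from their letters. The labels print one strand of each without saying whether it is the sense strand, so each is given first as printed and then as its complement, 5′ to 3′ in DNA letters, with bases 2 to 8 in capitals.
siEIF3G-4 as printed: gAACAAACtcaagggccagaa
siEIF3G-4 complement: tTCTGGCCcttgagtttgttc
siEIF3G-5 as printed: gAGGTCATcaacggaaacata
siEIF3G-5 complement: tATGTTTCcgttgatgacctc
siCtrl as printed: tTCTCCGAacgtgtcacgt
siCtrl complement: aCGTGACAcgttcggagaa

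Of these 6 strands, only siEIF3G-4 as printed shared bases 2 to 8 with a human mature miRNA in the RefSeq set (GRCh38.p14). It matched hsa-miR-495-3p of chromosome 14 and hsa-miR-5688 of chromosome 3, whose seeds are in capitals below. The complements of both EIF3G siRNAs and both siCtrl strands matched 0 miRNAs.
hsa-miR-495-3p: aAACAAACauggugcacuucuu
hsa-miR-5688: uAACAAACaccuguaaaacagc

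Values are TPM, shares of a library scaled to a sum of 1000000 and corrected for transcript length, as the authors deposited them. They keep no read depth. A lower share in every cell and a loss from some of the cells cannot be told apart. Changes are on the log2(TPM + 1) scale, siEIF3G minus siCtrl, which understates the change of low mRNAs. All 10 mRNAs were among the 10605 genes that averaged 1 TPM or more and entered the limma fit. The Benjamini-Hochberg adjustment ran over all of these genes, with a threshold of 0.05.

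A library had 13787 to 14659 genes with a TPM above 0. For siEIF3G input 2, siEIF3G polysomal 3 and siCtrl input 1, the mean correlation across genes was higher with the libraries of the opposite fraction (0.953 to 0.958) than with their own group (0.922 to 0.949). Results are therefore also given without these 3 libraries. The keratin KRT18 ranged from 435.3 to 1934 TPM and vimentin (VIM) from 265 to 3105 TPM, while EPCAM, NKX2-1 and 7 markers of blood, vessel, matrix, liver and glial cells stayed under 1 TPM throughout. The targeted EIF3G was at 60.7, 84.7 and 47.3 TPM in siEIF3G input, against 1158, 1092 and 877.6 TPM in siCtrl input. In polysomes it was at 143, 132 and 69.2 TPM with siEIF3G, against 1680, 1916 and 1803 TPM with siCtrl.

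The choice of the 10 mRNAs rests on the input contrast, so its values are a description without a test. With siEIF3G, the mean input level was between 22.2% (ABHD17A) and 41.7% (DERL2) of the siCtrl mean. The log2 changes ran from -2.17 to -0.97, with a median of -1.56, where the median of all tested genes was -0.05. Only 0.434% of the tested genes had a change below -1, and 9 of the 10 did. Among genes with a lower input level ordered by unadjusted p, THOP1, ABHD17A and C16orf74 came directly after EIF3G, and the other 7 held places 19 (DDAH1) to 127 (ARHGAP19). Ordered by size of change, ABHD17A, THOP1, MAPK6, DDAH1 and C16orf74 held places 2 to 6, and ARHGAP19 was at 52. There is no threshold that separates the 10 from the rest. The first non-members by p were the histone genes H4C2 (-1.74) and H3C7 (-1.31), the GTPase HRAS (-1.26), the aldo-keto reductase AKR1A1 (-1.04) and the calcium-binding CALB2 (-1.14), all with input levels lower in every siEIF3G library than in every siCtrl library.

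Input groups did not overlap for 5 of the 10, where 1.8% of all tested genes were lower without overlap, and this count was fixed in part by the choice of the members. These 5 were THOP1, ABHD17A, C16orf74, NSMCE4A and DERL2. For the other 5, DDAH1, MAPK6, RDH11, HDGFL3 and ARHGAP19, siCtrl input 1 lay within the range of the siEIF3G libraries.

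**Figure D1:**
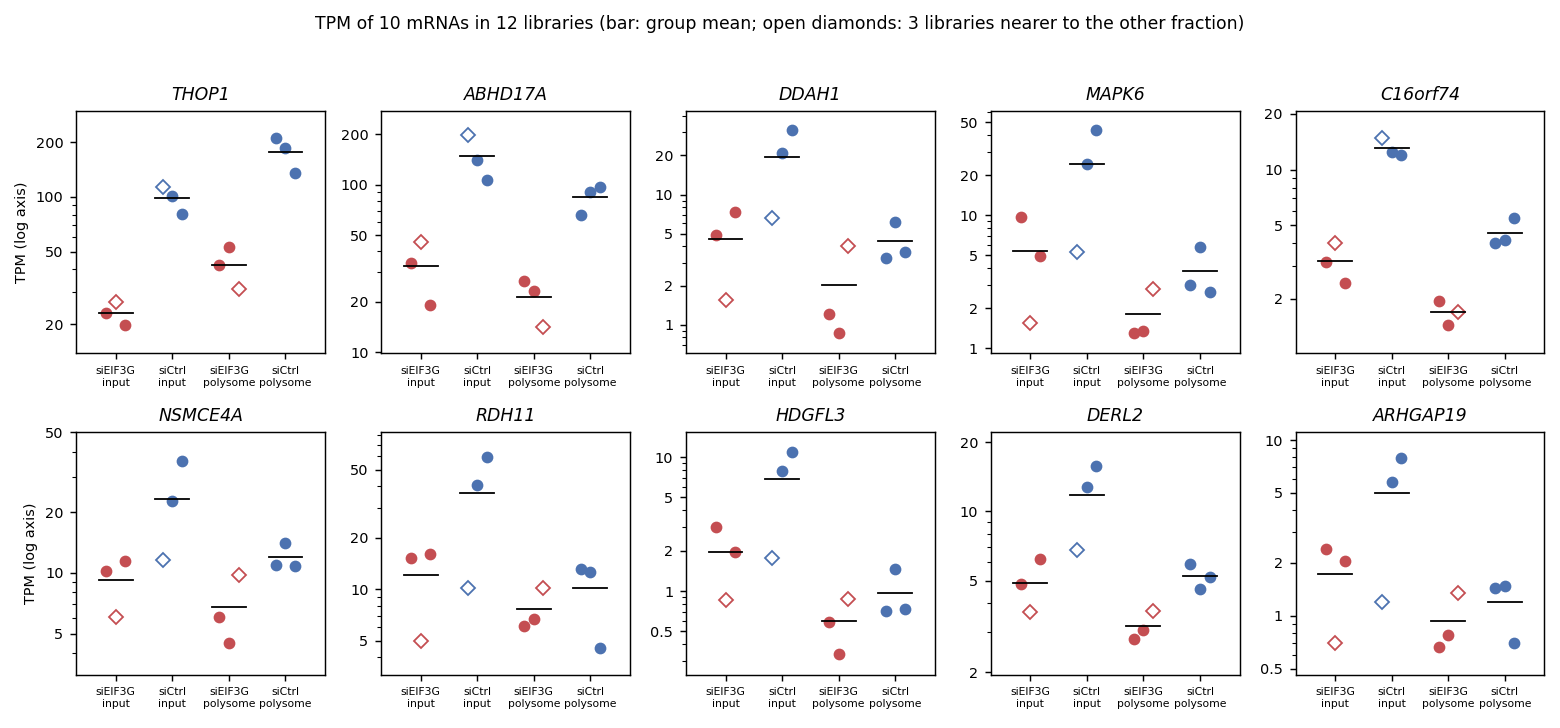
TPM (log axis) of each of the 10 mRNAs in the 12 libraries, with siEIF3G in red and siCtrl in blue, group means as bars, and the 3 libraries nearer to the other fraction as open diamonds. THOP1, ABHD17A and C16orf74 separate by siRNA in both fractions, while for MAPK6, DDAH1, RDH11, HDGFL3 and ARHGAP19 the open diamond of siCtrl input overlaps siEIF3G input.

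THOP1 encodes thimet oligopeptidase, a zinc metallopeptidase that cuts short peptides, among them bradykinin and products of the proteasome. It was the most abundant of the 10 on average over the libraries. Input levels were 23.0, 26.6 and 19.8 TPM with siEIF3G, against 113, 101 and 80.6 TPM with siCtrl. Polysomal levels were 42.4, 52.8 and 31.1 TPM with siEIF3G, against 211.5, 184.9 and 134.6 TPM with siCtrl. Every siEIF3G library lay below every siCtrl library in both fractions, and the mean that was left with siEIF3G was 23.5% in input and 23.8% in polysomes. The gene is on chromosome 19 at 2785503 to 2815807 (RefSeq positions, GRCh38.p14; the submitters' notes name GRCh38.p13).

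The rule that picked the mRNAs used input values, and the polysomal contrast was tested. Earlier results of these data were known when the mRNAs were picked, so the test is not shown to be independent of the choice. Input is also part of the same lysates, and a polysomal library may come from the same culture as an input library. THOP1 fell in polysomes by 2.05 on the log2 scale (SE 0.28, limma adjusted p = 0.0274), lower in 3 of 3 siEIF3G libraries. It was the 1 member called, where 0.0189% of the tested genes were called lower, 2 genes in all with EIF3G as the other. Relative to the median of all genes, which was 0.33 in this contrast with the deposited scaling, the change was -2.39.

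The THOP1 call was close to the threshold. Leaving out siEIF3G polysomal 1, 2 or 3 ended it (adjusted p = 0.213, 0.0524 and 0.141). The same held for siCtrl polysomal 1, 2 or 3 (adjusted p = 0.171, 0.338 and 0.0542), and for siEIF3G input 1 (0.0667) and siCtrl input 2 (0.0817). The log2 changes were then -2.24 to -1.86. It also ended with size factors (-2.60, adjusted p = 0.323) and quantile normalization (-2.01, adjusted p = 0.352), and it stood without the 3 libraries that were nearer to the other fraction (-1.86, SE 0.25, limma adjusted p = 0.0212).

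ABHD17A encodes a serine hydrolase that removes palmitate from proteins such as N-Ras, which releases them from membranes. Input levels were 34.0, 45.5 and 19.2 TPM with siEIF3G, against 196, 141 and 107 TPM with siCtrl. Polysomal levels were 26.6, 23.1 and 14.1 TPM with siEIF3G, against 65.7, 90.1 and 96.04 TPM with siCtrl. The groups did not overlap in either fraction. In polysomes the log2 change was -1.96 (SE 0.36, limma adjusted p = 0.421), the third lowest of all tested genes after EIF3G and THOP1, but not past the threshold. Without the 3 libraries it was -1.70 (SE 0.28, limma adjusted p = 0.0802). The gene is on chromosome 19 at 1876810 to 1885496.

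C16orf74 encodes a small protein reported to bind the phosphatase calcineurin. Input levels were 3.15, 3.99 and 2.43 TPM with siEIF3G, against 14.8, 12.4 and 11.9 TPM with siCtrl. Polysomal levels were 1.95, 1.45 and 1.71 TPM with siEIF3G, against 4.0, 4.18 and 5.47 TPM with siCtrl. The groups were apart in both fractions, and the siCtrl input libraries were within a narrow range. The polysomal change was -1.03 (SE 0.33, limma adjusted p = 0.650), and without the 3 libraries -1.04 (SE 0.25, limma adjusted p = 0.182). The gene is on chromosome 16 at 85707517 to 85751096.

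NSMCE4A encodes the kleisin-type subunit of the SMC5/6 complex, which acts in DNA repair. Its input levels were 10.2, 6.02 and 11.5 TPM with siEIF3G, against 11.6, 22.8 and 35.8 TPM with siCtrl, so that the highest siEIF3G library (11.50) and siCtrl input 1 (11.55) nearly met. Polysomal levels were 6.06, 4.47 and 9.72 TPM with siEIF3G, against 10.9, 14.2 and 10.9 TPM with siCtrl. The polysomal groups did not overlap, and the change of -0.79 did not pass (SE 0.44, limma adjusted p = 0.650).

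DERL2 encodes derlin-2, a membrane protein of the endoplasmic reticulum that helps to send misfolded proteins to degradation in the cytosol. In input it was at 4.85, 3.64 and 6.20 TPM with siEIF3G, against 6.77, 12.7 and 15.8 TPM with siCtrl. Polysomal levels were 2.79, 3.05 and 3.67 TPM with siEIF3G, against 5.89, 4.59 and 5.17 TPM with siCtrl. The polysomal groups did not overlap either, and the change of -0.58 did not pass (SE 0.38, limma adjusted p = 0.650). NSMCE4A is on chromosome 10 at 121957091 to 121975217, and DERL2 on chromosome 17 at 5471254 to 5486817.

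MAPK6 encodes ERK3, an atypical MAP kinase that activates the kinase MAPKAPK5. Input libraries held 9.78, 1.55 and 4.99 TPM with siEIF3G, against 5.30, 24.3 and 43.5 TPM with siCtrl. Polysomal levels were 1.31, 1.35 and 2.79 TPM with siEIF3G, against 3.0, 5.74 and 2.67 TPM with siCtrl. The groups overlapped in both fractions, since siCtrl input 1 lay within the range of siEIF3G input and siEIF3G polysomal 3 lay just above siCtrl polysomal 3. The polysomal change was -0.76 (SE 0.68, limma adjusted p = 0.666), and MAPK6 is on chromosome 15 at 51971825 to 52067375.

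DDAH1 encodes the enzyme that breaks down asymmetric dimethylarginine, an inhibitor of nitric oxide synthases. Its input levels were 4.85, 1.55 and 7.35 TPM with siEIF3G, against 6.57, 20.8 and 31.3 TPM with siCtrl. Polysomal levels were 1.20, 0.86 and 4.01 TPM with siEIF3G, against 3.26, 6.17 and 3.65 TPM with siCtrl. In each fraction the overlap came from a library that stood apart, siCtrl input 1 and siEIF3G polysomal 3. The polysomal change was -0.93 (SE 0.61, limma adjusted p = 0.650) and -1.37 without the 3 libraries (SE 0.31, limma adjusted p = 0.182). DDAH1 is on chromosome 1 at 85318485 to 85578200, with the longest gene body of the 10.

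RDH11 encodes a retinal reductase of the endoplasmic reticulum. The input values were 15.2, 4.96 and 16.1 TPM with siEIF3G, against 10.2, 40.5 and 59.5 TPM with siCtrl. Polysomal levels were 6.05, 6.68 and 10.1 TPM with siEIF3G, against 13.2, 12.6 and 4.52 TPM with siCtrl. Both pairs of groups overlapped, and siCtrl polysomal 3 was the lowest polysomal library of all 6. The polysomal change was -0.28 (SE 0.63, limma adjusted p = 0.808). RDH11 is on chromosome 14 at 67676800 to 67695764.

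HDGFL3 encodes a PWWP-domain protein of the hepatoma-derived growth factor family. In input RNA it was at 3.0, 0.85 and 1.97 TPM with siEIF3G, against 1.75, 7.91 and 11.0 TPM with siCtrl. All of its polysomal levels were below 1.5 TPM, with a mean of 0.60 ± 0.27 TPM with siEIF3G and 0.970 ± 0.433 TPM with siCtrl (SD, n = 3 libraries each). The polysomal change was -0.29 (SE 0.50, limma adjusted p = 0.763), within the spread between libraries. HDGFL3 is on chromosome 15 at 83112738 to 83207823.

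ARHGAP19 encodes a GTPase-activating protein for RhoA that acts in dividing cells. The input libraries held 2.41, 0.70 and 2.04 TPM with siEIF3G, against 1.20, 5.77 and 7.94 TPM with siCtrl. Polysomal means were 0.927 ± 0.363 TPM with siEIF3G and 1.20 ± 0.437 TPM with siCtrl (SD, n = 3 libraries each). On the log2(TPM + 1) scale it had the smallest change of the 10 in both fractions, -0.97 in input and -0.19 in polysomes (polysomal SE 0.48, limma adjusted p = 0.828). That scale understates the change of low mRNAs. By means, its input level with siEIF3G was 34.5% of siCtrl, a larger fall than for NSMCE4A (39.5%) and DERL2 (41.7%). ARHGAP19 is on chromosome 10 at 97222179 to 97292637.

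Across the 10, polysomal changes ran from -2.05 to -0.19 with a median of -0.77, against 0.33 for all tested genes, of which 27.3% were below 0. All 10 were below 0. At an unadjusted p under 0.05 were 3 of the 10 (THOP1, ABHD17A and C16orf74), all lower. Of the tested genes 6.69% were, counted in both directions, so this share is not a like measure for lower genes alone. The groups did not overlap for 5 of the 10, the same 5 as in input, where 7.61% of the tested genes were lower without overlap. Of all tested genes, 0.575% had a lower polysomal change than DDAH1 and 0.377% a lower one than C16orf74. By the same count it was 1.35% for NSMCE4A, 1.61% for MAPK6 and 4.24% for DERL2. HDGFL3 (13.3%), RDH11 (14.0%) and ARHGAP19 (18.2%) lay further inside the range of all genes. The siEIF3G and siCtrl polysomal libraries differed in many genes at once, with 21.6% of the tested genes higher without overlap, and the part of this wider difference in the values of the 10 was not tested. With the position of each library on the main axis of variation within groups as a covariate, added after seeing the data, 7 of the 10 passed, where 3.38% of the tested genes were called lower and 33% higher. This covariate comes from the residuals of the same libraries and narrows the errors by construction.

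**Figure D2:**
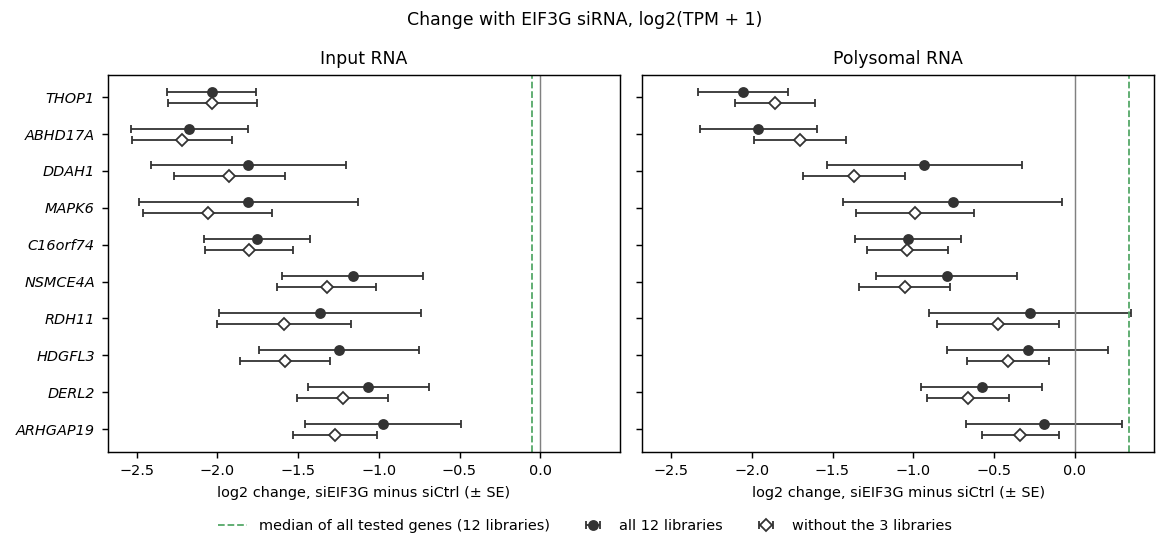
Log2 change of each of the 10 mRNAs with EIF3G siRNA in input (left) and polysomal RNA (right), with standard errors, for all 12 libraries (filled) and without the 3 libraries nearer to the other fraction (open). All 10 lie left of the median of all tested genes (dashed), and the input values are those by which the mRNAs were picked.

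In the siCtrl input library that stood apart, the 10 lay on both sides of 0. THOP1, ABHD17A and C16orf74 were higher in siCtrl input 1 than in the mean of siCtrl input 2 and 3, by 0.32, 0.67 and 0.27 on the log2 scale. The other 7 were lower there, from -0.96 for DERL2 to -2.41 for MAPK6, where the median of all tested genes was -1.23. A value below 0 was thus common among all genes. C16orf74 was above 90.6% of the tested genes, while DERL2 (58.6%) and NSMCE4A (49.9%) stood near the middle. siEIF3G input 2 showed the same signs against its own group, with THOP1, ABHD17A and C16orf74 higher by 0.31, 0.81 and 0.40. The other 7 were lower, from -0.48 for DERL2 to -1.66 for MAPK6 (all genes -0.71). Both libraries lie at the same end of the main axis of variation within groups (positions 0.589 and 0.442). The second library is therefore not a separate observation of these signs. In siEIF3G polysomal 3, THOP1 and ABHD17A were lower than in the other 2 libraries of the group (-0.59 and -0.78), C16orf74 was level with them (0.01), and the other 7 were higher. Without the 3 libraries, input groups did not overlap for any of the 10, where 28.7% of the tested genes were lower without overlap at 2 libraries each, and the members were picked on these input values. The siEIF3G mean was then 21.5% (ABHD17A) to 38.8% (DERL2) of the siCtrl mean. In polysomes, 8 of the 10 then did not overlap, with RDH11 and ARHGAP19 as the exceptions, where 9.44% of the tested genes were lower without overlap.

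**Figure D3:**
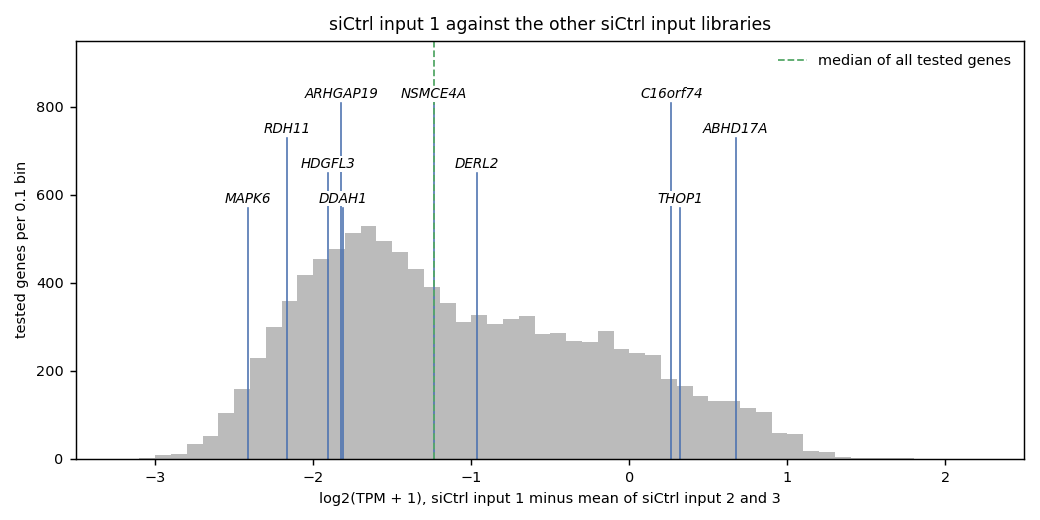
Difference in log2(TPM + 1) between siCtrl input 1 and the mean of siCtrl input 2 and 3, as a histogram of all tested genes in bins of 0.1 with the 10 mRNAs marked and the median of all genes dashed. THOP1, ABHD17A and C16orf74 lie above 0, and the other 7 lie below 0, MAPK6 lowest at -2.41.

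The 10 also differed in how they were spread between fractions in control cells, a contrast that shares siCtrl input with the choice and is given without a test. In siCtrl polysomes THOP1 averaged 177 TPM, against 98.3 TPM in siCtrl input. Its log2 difference of 0.83 was higher than that of 91.8% of the tested genes. The other 9 had less in polysomes than in input, from 0.567 times for ABHD17A to 0.156 times for MAPK6 and 0.141 times for HDGFL3. Relative to the median of all genes of -0.96, NSMCE4A, ABHD17A and DERL2 (-0.78, -0.79 and -0.97) stood near the middle, and MAPK6 (-2.05) was lower than all but 6.15% of the tested genes.

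The difference between the polysomal and the input change (polysome loading) contains the input contrast and is likewise a description. It was -0.02 for THOP1 (SE 0.39) and 0.21 for ABHD17A (SE 0.51). For the other 8 it ran from 0.37 (NSMCE4A) to 1.09 (RDH11), with SE of 0.47 to 0.96. The median of the 10 was 0.75, against 0.38 for all tested genes as deposited. With size factors it was 0.23 against -0.03, and THOP1, ABHD17A, NSMCE4A and DERL2 were below 0.

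For THOP1, the mRNAs with the most similar pattern over the 12 libraries, among 7261 genes that averaged 5 TPM or more, were EIF3G (Pearson r = 0.971), the lysosomal transporter SPNS1 (0.955) and AKR1A1 (0.948). These coefficients are descriptions over libraries that share their groups. SPNS1 averaged 61.2 ± 13.7 TPM in siEIF3G input and 120.2 ± 28.2 TPM in siCtrl input. In polysomes it averaged 81.9 ± 20.4 TPM with siEIF3G and 210.4 ± 13.9 TPM with siCtrl (SD, n = 3 libraries each). Its polysomal change of -1.38 (SE 0.27) did not pass (limma adjusted p = 0.579). Of the 7 other members at that level, ABHD17A came nearest, in place 154 of that order (0.741). ABHD17A and C16orf74 were more like each other (0.923). ABHD17A came first in the order for C16orf74. In the order for ABHD17A, C16orf74 was in place 6, and the non-member FNDC4 came first (0.969).

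Of the 20 tested protein-coding genes next to the 10 on their chromosomes, 0 were called by limma in either fraction, and at an unadjusted p under 0.05 were 0 in input and 1, SCAMP4, in polysomes. The tested protein-coding neighbours of THOP1 are SGTA, a co-chaperone, at -0.13 in input (SE 0.23) and -0.37 in polysomes, and the zinc finger gene ZNF556 at 0.04 in input. The neighbours of ABHD17A are the transcription factor KLF16 (0.06 in input) and SCAMP4, a secretory carrier membrane protein (-0.17 in input and -0.92 in polysomes, SE 0.33). Those of C16orf74 are the replication factor GINS2 (-0.19 in input) and EMC8, a subunit of a membrane insertase (0.04 in input). Those of EIF3G, PPAN-P2RY11 and DNMT1, were at 0.07 and 0.05 in input. THOP1, ABHD17A and EIF3G share chromosome 19, and the other 8 lie on 6 other chromosomes.

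Relatives and partners of the 10 proteins were taken from short lists, and 0 members of any list were called in either fraction by limma. At an unadjusted p under 0.05 were 2 of the 144 genes on all lists in input, both higher, and 12 in polysomes, 1 of them lower. Among all tested genes these shares were 1.36% in input and 6.69% in polysomes. The 144 also include the interferon and RNA interference genes described further below. The lower gene in polysomes was IFI6, from the interferon genes and not a relative or partner of the 10. Counts below 0 in input stand beside 57% of all tested genes. Of 25 other oligopeptidases and aminopeptidases, 10 were below 0 in input, with a median of 0.02. NLN, neurolysin, the closest relative of THOP1, was at 0.02 in input (SE 0.74) and 1.14 in polysomes. The 7 other depalmitoylation genes had an input median of -0.03, with ABHD17B at -0.17 (SE 0.53). DDAH2 was at 0.19 in input (SE 0.25), in a list of 8 nitric oxide and arginine genes with a median of 0.22. These medians are set against -0.05 for all tested genes, and the paralogs named were within 1 SE of 0 in input.

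The partners of the other members gave these counts. Among 26 genes of endoplasmic reticulum associated degradation, 18 were below 0 in input with a median of -0.11, and DERL1 was at -0.25 (SE 0.42) and DERL3 at -0.43 (SE 0.35). Of 7 other SMC5/6 genes, 5 were below 0, with a median of -0.31, and the core ATPase subunits SMC5 and SMC6 were at -0.58 (SE 0.72) and -0.31 (SE 0.70). The 20 RhoA and cytokinesis genes had 15 below 0 and a median of -0.34. They ran from -0.83 for ANLN (SE 0.70) to 0.79 for RHOB (SE 0.35), with RHOA itself at 0.08 (SE 0.36). The 10 genes around ERK3 had a median of -0.05, with MAPKAPK5 at 0.24 (SE 0.58). The 8 retinoid enzymes had a median of -0.03, the 3 HDGF relatives -0.08 and the 10 calcineurin genes -0.07. In polysomes the medians of these lists ran from 0.20 (retinoid enzymes) to 0.92 (peptidases), against 0.33 for all genes.

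Genes that answer double-stranded RNA or carry out RNA interference were counted the same way. Of 10 tested interferon-stimulated genes and RNA sensors, 7 were below 0 in input with a median of -0.33, and 3 were below 0 in polysomes with a median of 0.39. IFI6, an interferon-induced membrane protein, was at -0.32 in input (SE 0.27) and -0.70 in polysomes (SE 0.27). The 10 tested RNA interference genes had medians of -0.09 in input, with 6 below 0, and 0.54 in polysomes. In input they ran from -0.58 for DROSHA (SE 0.69) to 0.37 for PRKRA (SE 0.47). AGO1, an Argonaute, was at 0.08 in input (SE 0.65), and XPO5, the exporter of miRNA precursors, at 0.32 (SE 0.60).

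The promoters of the 10, 250 bases before to 50 after the start in RefSeq (GRCh38.p14), were searched for 9 motifs, and 0 of these were in all 10. The letters CCAAT, on either strand, were in 5 of the 10 (THOP1, NSMCE4A, RDH11, DERL2 and ARHGAP19) and in 37.4% of 8722 promoters of tested genes. GGGCGG was in 7 of the 10, against 73.2% of all, and TATAAA in 0 of the 10, against 4.82%. GC content ran from 49.7% (DDAH1) to 80.7% (C16orf74), with a median of 66% over all.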

How the data were processed

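TPM in the deposited table were computed by the authors per gene and library. RSEM 1.3.1 and the build GRCh38.p13 are named in the submitters' processing notes. For the aligner, the annotation and any filter, the sources used here give nothing. TPM keep no depth, so no counting interval is given.

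The 10605 of 16172 genes that averaged 1 TPM or more were analysed as log2(TPM + 1) with limma 3.58.1 in R 4.3.3, with 4 group means, the mean-variance trend and 8 residual degrees of freedom. The Benjamini-Hochberg adjustment covered all tested genes, and values stayed as deposited. The fit was tested on simulated data. The members and lists were chosen with earlier results of these data known. Text names all members, their relatives and neighbours, the first 5 non-members by input p, the 3 genes most like THOP1, and list members called or with large polysomal changes. Not every gene that this rule names is reported here. Chromosome positions and promoters come from RefSeq (GRCh38.p14). No transcript sequences were used here, so the planned search for siRNA sites was not run. Alternatives covered the pseudocount, filter, scaling, moderation, libraries and replicate block.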

Additional observations from a re-analysis of the deposited data

How the results depend on the processing

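All 10 mRNAs stayed below 0 in polysomal and in input RNA under each of the 24 alternatives run, except that HDGFL3 and ARHGAP19 had no value with a minimum mean of 5 TPM. The alternatives refit the same libraries. The members were picked on the input values, so their sign in input was largely fixed beforehand. In the main fit, 57% of the tested genes were below 0 in input and 27.3% in polysomes. The call of THOP1 in polysomes ended with no filter (adjusted p = 0.0501), no trend (0.0981), only the groups compared (0.0977), size factors and quantile normalization, and the cause was not tested. In polysomal RNA, the 2 genes called by limma became 1 with no filter, size factors, quantile normalization, no trend or only the 2 groups compared, 1 to 2 when any library was left out, and 4 without the 3 libraries that stood apart (2 lower and 2 higher). In input RNA, the 2 genes called (0 higher) became 1 with no trend or only the 2 groups, 1 to 2 when any library was left out, and 5 without the 3 libraries (4 lower and 1 higher); with size factors, and with quantile normalization, they were 1 lower and 1 higher. Each library's place on the main axis of variation within groups (78% of that variance) was added as a covariate after seeing the data. It leaves the changes as they are and narrows their errors by construction, with 3855 genes called in polysomal and 28 in input RNA. In polysomes 7 of the 10 then passed, where 3.38% of the tested genes were called lower; RDH11, HDGFL3 and ARHGAP19 did not. Same-numbered libraries of different groups had correlations of deviations from -0.689 to 0.712 across genes. These deviations lie largely on the main axis, so they cannot show whether libraries of the same number share a lysate. With the replicate block, 2 genes were called in each fraction, and THOP1 had a limma adjusted p of 0.0139 in polysomes. The seed-site alternatives were not run, as no transcript sequences were used. Levels near 1 TPM, as for HDGFL3 and ARHGAP19 in polysomes, limit what could be seen, at a depth that is unknown.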
